A study of Mus musculus with 8 samples.

Results

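The cytosines described here are isolated CpGs in a reduced representation bisulfite sequencing data set from mouse brain. A cytosine of a CpG counted as isolated when it lay on chromosomes 1 to 19, had at least 10 reads in all 8 libraries, and was more than 100 bp from any cytosine of another CpG read to that depth in all 8. Position and coverage made this choice, and methylation level did not enter it. The rule held for 81221 of 1480441 common cytosines, or 5.49%, which belong to 79526 CpGs. The other 1399220 common cytosines are called clustered below. The libraries came from male C57 BL/6 mice, 1 library per mouse, 4 labelled cocaine and 4 labelled saline. Titles of both groups carry the term self-administration. In self-administration an animal takes the drug, or saline as its control, by its own response, such as a lever press. The dissected tissue is labelled the dDG DGC layer, taken here to mean granule cells of the dorsal dentate gyrus, and the labels used here give neither age nor dose. The tissue was dissected and not sorted, so a difference in the mix of cells and a difference within 1 cell type cannot be told apart. Identity of the tissue was not checked, since no RNA was measured in these libraries.

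In mammalian genomes most CpGs stand alone and carry methylation in most cells, while dense runs of CpGs at gene starts are usually free of it. DNMT1 copies the mark after DNA replication, DNMT3A and DNMT3B set it anew, and TET enzymes oxidise it. Reduced representation sequencing cuts DNA with a restriction enzyme, commonly MspI, which cuts at CCGG, and reads short fragments from their ends, so it favours dense CpGs. Bisulfite turns unmethylated cytosine into uracil, and the methylation level is the share of reads in which the cytosine was kept.

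Reference sequence around isolated CpGs was at hand only for windows of 300 bases at gene starts, from 250 bases before to 50 after, taken from RefSeq on build GRCm38.p6. These windows hold 437 isolated cytosines, or 0.538% of all. The 6 stretches below show what an isolated CpG looks like in a window with few CpGs (Ddr2, Itgb6 and Hc, at most 3 in the window) and in one with many (Rab23, Pid1 and Fkbp1b, at least 15). Each is 122 bases long, printed 5′ to 3′ on the strand of its gene, with every CG in capitals and the isolated CpG at position 61. The genes were picked by the highest minimum coverage, after values were known.
Ddr2 chr1:170088988-170089109 - strand: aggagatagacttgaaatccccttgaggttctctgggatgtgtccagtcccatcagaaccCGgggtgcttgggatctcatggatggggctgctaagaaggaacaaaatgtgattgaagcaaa
Itgb6 chr2:60673703-60673824 - strand: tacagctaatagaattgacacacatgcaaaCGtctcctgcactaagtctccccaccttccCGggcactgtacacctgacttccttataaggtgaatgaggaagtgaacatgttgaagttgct
Hc chr2:35061419-35061540 - strand: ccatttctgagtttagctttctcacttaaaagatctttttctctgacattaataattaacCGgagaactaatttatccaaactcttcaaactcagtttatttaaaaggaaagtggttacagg
Rab23 chr1:33719656-33719777 + strand: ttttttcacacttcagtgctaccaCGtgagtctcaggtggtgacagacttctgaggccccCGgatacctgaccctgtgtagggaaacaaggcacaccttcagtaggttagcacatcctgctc
Pid1 chr1:84284679-84284800 - strand: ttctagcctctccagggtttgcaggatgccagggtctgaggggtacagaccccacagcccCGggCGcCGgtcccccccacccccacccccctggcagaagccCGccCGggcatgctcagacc
Fkbp1b chr12:4841695-4841816 - strand: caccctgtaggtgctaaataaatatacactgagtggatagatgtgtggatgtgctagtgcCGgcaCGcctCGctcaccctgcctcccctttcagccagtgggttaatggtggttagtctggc
In each of these stretches the isolated CpG lies in CCGG, and any other CpG in it lies behind the cytosine with respect to the direction in which it is read. The Ddr2 cytosine, upstream of a collagen receptor kinase, averaged 90.9 ± 2.76% in cocaine mice and 87.6 ± 10.4% in saline mice (SD, n = 4 each, here and below). The Hc cytosine, upstream of complement C5, averaged 96.4 ± 1.85% in cocaine mice and 92.5 ± 6.42% in saline mice. The Itgb6 cytosine, upstream of an integrin subunit, averaged 54.0 ± 8.64% in cocaine mice and 62.6 ± 5.08% in saline mice. With many CpGs in the window the levels were near 0. The Rab23 cytosine, upstream of a small GTPase, averaged 4.10 ± 3.02% in cocaine mice and 2.05 ± 1.92% in saline mice. The Pid1 cytosine averaged 0% in cocaine mice and 0.238 ± 0.476% in saline mice, and that of Fkbp1b, which encodes a regulator of ryanodine receptors, was at 0% in all 8.

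Isolated cytosines were highly methylated, while most clustered ones were not. The mean level over isolated cytosines was 75.8, 77.5, 76.6 and 78.1% in cocaine mice 1 to 4, against 77.6, 78.3, 78.4 and 78.8% in saline mice 1 to 4. Clustered cytosines averaged 34.9 ± 0.697% in cocaine mice and 35.6 ± 0.153% in saline mice. Within a mouse the isolated mean was 42.4 ± 0.600 percentage points above the clustered mean, higher in 8 of 8 mice (two-sided exact sign-flip permutation test over 8 mice, p = 0.00781, the smallest it can give). The median over cytosines was 89.3% for isolated and 5.28% for clustered ones. By mean level over the mice, 26.1% of isolated cytosines were at 95% or above and 40.5% at 80 to 95%, against 7.73% and 19.8% of clustered ones. A level of 20 to 80% was found at 27.5% of isolated and 16.8% of clustered cytosines. Below 5% the order turned round, with 1.76% of isolated and 49.8% of clustered cytosines.

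**Figure D1:**
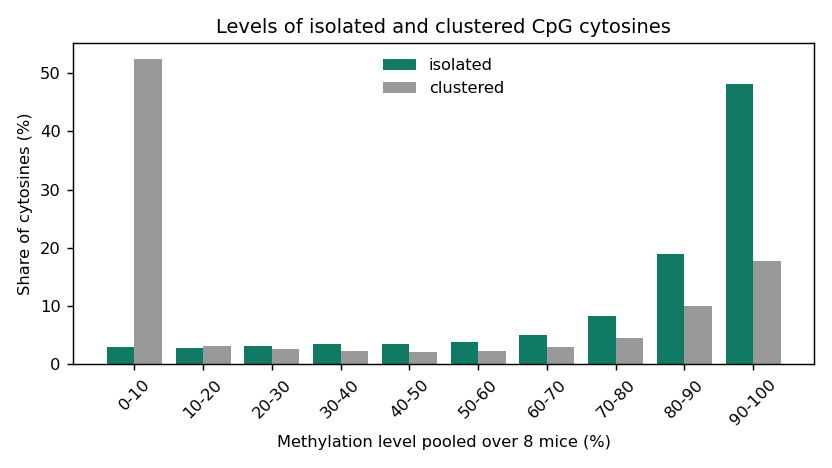
Share of isolated cytosines (green) and clustered cytosines (grey) in 10-point bins of the methylation level pooled over 8 mice. The bin of 90 to 100% holds 48.1% of isolated and 17.7% of clustered cytosines, and the bin of 0 to 10% holds 3.01% and 52.5%.

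Isolated and clustered cytosines lay in different places, and the contrast in level was present in each place. Of the isolated cytosines 49.4% lay inside a gene, 42.9% between genes and 7.63% within 1 kb of either end of a gene, against 37.5%, 19.6% and 42.8% of clustered ones. In all, 14477 genes held an isolated cytosine inside or within 1 kb of an end. At gene ends isolated cytosines averaged 62.4 ± 1.20% in cocaine mice and 63.9 ± 0.645% in saline mice, 55.1 points above clustered ones in the mean over mice. Inside genes the means were 75.4 ± 1.23% in cocaine mice and 76.9 ± 0.586% in saline mice, 26.4 points above. Between genes they were 81.4 ± 0.776% in cocaine mice and 82.3 ± 0.399% in saline mice, 15.3 points above. Each of these 3 gaps had the same sign in 8 of 8 mice (exact sign-flip permutation test, p = 0.00781 each). Exons, introns and CpG islands were not analysed here.

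The median over cytosines of the mean coverage was 52.6 reads for isolated and 57.5 reads for clustered ones. The libraries listed 1844706 to 2236384 cytosines each, with 87964952 to 141775386 reads summed over them. Isolated cytosines took 3480776 to 6458422 of these reads per mouse. Their median coverage was 39, 56, 37 and 48 reads in cocaine mice 1 to 4, and 54, 54, 72 and 56 reads in saline mice 1 to 4. No molecular identifiers are mentioned in the labels, so copies of few molecules may be counted many times and counting error alone understates the error. A single library stood apart. Among isolated cytosines of intermediate level with 30 to 40 reads, saline 1 had 15.5% at exactly 0 or 100%, and the other 7 libraries 0.535% to 3.80%. The group difference in the isolated mean is therefore also given without saline 1.

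Most isolated CpGs were read on 1 strand and faced another CpG across a short gap. Of the isolated CpGs, 97.9% were read on 1 strand, against 78.3% of 1149784 clustered CpGs, and 1695 were read on both. Gaps of over 100 and up to 300 bp between neighbouring single-strand CpGs with an isolated side numbered 45711. In 94.4% of them the left cytosine was on the plus strand and the right one on the minus strand, so that reads from the 2 ends face each other, and 0.637% were back to back. At over 300 and up to 1000 bp most were back to back, 4222 of 7031 gaps, and 14.1% were facing. In 15532 stretches of at most 400 bp both facing ends were isolated, a median of 165 bp apart, and these held 31064 cytosines, or 38.2% of the isolated ones. Such stretches are called fragments below from this geometry alone. In promoter windows CCGG, a palindrome and so the same on both strands, was present at 419 of 434 isolated cytosines whose surroundings lay in the window (96.5%). It was present at 12.1% of clustered cytosines there, and 53.5% of 31396 windows hold it somewhere.

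Isolation by this rule did not mean that the genome held no other CpG nearby. Of 131 isolated cytosines with 100 bases of reference sequence on both sides, 44 had no other CpG within 100 bases on either side. In the direction of reading, 124 of the 131 had none, and 80 had a CpG behind but none ahead. Cytosines with no CpG on either side averaged 57.6 ± 0.703% in cocaine mice and 60.6 ± 2.01% in saline mice. The 87 with a CpG behind them averaged 44.4 ± 1.22% in cocaine mice and 46.3 ± 1.23% in saline mice. Of all isolated cytosines, 66201 (81.5%) also lay more than 100 bp from any CpG listed in any library. The others had a neighbour that missed 10 reads in at least 1 mouse.

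The facing ends of a fragment had similar levels in most cases. Over the 15532 pairs the levels correlated at 0.682, as a description over pairs that share libraries and fragments. The median difference between the ends was 6.46 points, 62.4% of pairs lay within 10 points, and 499 pairs (3.21%) were over 50 points apart. The 1695 CpGs read on both strands correlated at 0.959, with a median difference of 3.12 points between strands. The 3 fragments below, which lie wholly upstream of a gene start, show both ends of such a stretch. They are printed on the strand of the gene, with the CGs in capitals, and were chosen by coverage among 10 such fragments.
Vwa3a chr7:120739333-120739535 + strand: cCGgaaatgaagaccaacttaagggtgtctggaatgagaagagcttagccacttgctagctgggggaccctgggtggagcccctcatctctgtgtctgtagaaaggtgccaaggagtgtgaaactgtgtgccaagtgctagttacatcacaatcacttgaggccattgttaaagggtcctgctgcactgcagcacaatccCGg
Nlrp2 chr7:5351043-5351239 - strand: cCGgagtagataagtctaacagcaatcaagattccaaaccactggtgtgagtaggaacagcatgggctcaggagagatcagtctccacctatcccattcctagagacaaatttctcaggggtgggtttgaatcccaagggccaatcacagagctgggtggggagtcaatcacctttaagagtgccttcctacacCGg
Slc2a10 chr2:165503647-165503805 + strand: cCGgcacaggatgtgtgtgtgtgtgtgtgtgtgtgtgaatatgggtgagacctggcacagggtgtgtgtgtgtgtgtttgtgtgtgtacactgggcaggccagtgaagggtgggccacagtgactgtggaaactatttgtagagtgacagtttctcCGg
The Vwa3a fragment was methylated at its plus-strand end and much less so at the other. Its plus-strand end was at 78.0, 74.5, 69.1 and 58.3% in cocaine mice 1 to 4, and at 80.5, 86.6, 70.5 and 77.5% in saline mice 1 to 4. Its minus-strand end was at 31.9, 23.2, 10.5 and 51.3% in cocaine mice 1 to 4, and at 12.8, 21.2, 23.9 and 30.2% in saline mice 1 to 4. In each of the 8 mice the plus-strand end was the higher one, and at both ends the groups overlapped. The Nlrp2 fragment lies at a member of the NLR family of innate immune sensors. Its plus-strand end, the last CG as printed, averaged 74.6 ± 16.9% in cocaine mice and 87.0 ± 13.3% in saline mice. Its minus-strand end, the first CG as printed, averaged 94.8 ± 8.88% in cocaine mice and 87.4 ± 14.01% in saline mice. At Slc2a10, which encodes a glucose transporter, the ends averaged 1.07 ± 1.43% and 3.23 ± 4.24% in cocaine mice, and 7.61 ± 7.06% and 12.4 ± 14.3% in saline mice. The Slc2a10 window holds 12 CpGs, and the windows of Vwa3a and Nlrp2 hold 3 each.

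Mean level was higher at larger distances to the next CpG up to about 100 bp, varied little from 100 to 1000 bp and was highest beyond. The median distance of an isolated cytosine to the next common CpG was 179 bp, with 137 and 261 bp at the 25th and 75th percentiles and 4042 bp at the 90th. At over 100 and up to 150 bp isolated cytosines averaged 75.2 ± 0.998% in cocaine mice and 76.6 ± 0.533% in saline mice. At 500 to 1000 bp the means were 73.7 ± 1.48% in cocaine mice and 75.2 ± 0.432% in saline mice. At over 20000 bp they were 88.1 ± 0.435% in cocaine mice and 88.6 ± 0.155% in saline mice. The most remote cytosines were thus the most methylated. Clustered cytosines with a CpG within 10 bp averaged 20.7 ± 0.494% in cocaine mice and 21.2 ± 0.0577% in saline mice. On either side of the limit, the 6173 isolated cytosines up to 10 bp beyond it averaged 71.4 ± 1.19% in cocaine mice and 72.8 ± 0.601% in saline mice. The 17659 clustered ones up to 10 bp inside it averaged 62.7 ± 0.930% in cocaine mice and 63.6 ± 0.460% in saline mice. The level was higher just beyond the limit than just inside it. The correlation of a cytosine's level with that of the nearest common CpG was 0.98 at 1 to 10 bp, 0.78 at 100 to 150 bp, 0.39 at 500 to 1000 bp and 0.06 at over 20000 bp. These coefficients run over cytosines of the same 8 libraries and describe them only.

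**Figure D2:**
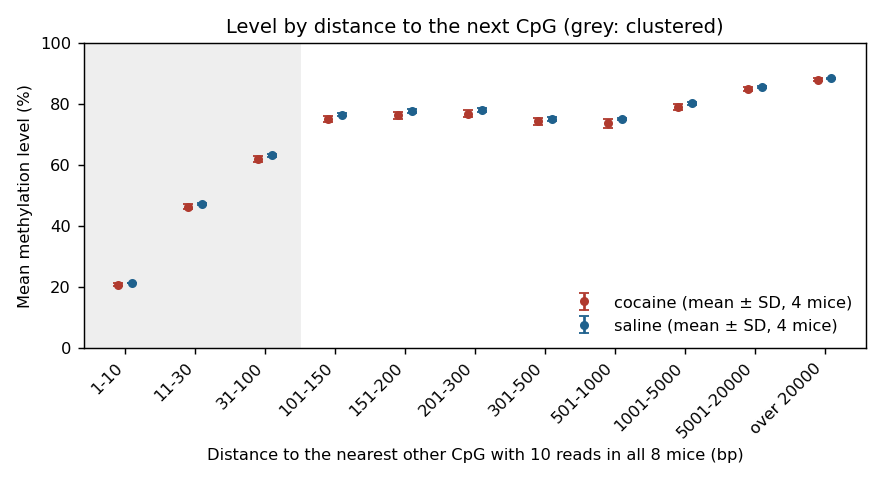
Mean methylation level by distance to the nearest other common CpG in bp, for cocaine (red) and saline (blue) mice, with SD over 4 mice. Means lie at 20.7% and 21.2% at 1 to 10 bp and at 88.1% and 88.6% at over 20000 bp. Grey marks the clustered distances.

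The 3 most remote cytosines by the rule were at high or intermediate level. The farthest, at base 93994150 of chromosome 7 (plus strand), lies 173181 bp from the next common CpG and has no protein-coding gene within 50 kb. It was at 100, 82.5, 100 and 92.7% in cocaine mice 1 to 4, and at 89.5, 95.8, 82.8 and 88.6% in saline mice 1 to 4. A cytosine 18938 bp from Vmn2r35, a pheromone receptor gene, averaged 61.6 ± 20.3% in cocaine mice and 53.1 ± 9.07% in saline mice. A cytosine inside Grm7, which encodes a presynaptic glutamate receptor, averaged 95.03 ± 8.28% in cocaine mice and 96.3 ± 4.28% in saline mice. The groups overlapped at all 3. The remoteness depends on coverage, as the Vmn2r35 and Grm7 cytosines have a CpG listed in at least 1 library at 139 and 150 bp.

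Isolated cytosines near gene starts were less methylated than elsewhere but, with CpG density left aside, well above clustered ones. Within 250 bp of a start the 681 isolated cytosines averaged 49.0 ± 1.33% in cocaine mice and 51.1 ± 0.236% in saline mice, against 2.91% and 3.15% for clustered ones. At 1000 to 5000 bp they averaged 71.1 ± 1.22% in cocaine mice and 72.7 ± 0.525% in saline mice, against 37.8% and 38.7%. Beyond 50000 bp they averaged 81.7 ± 0.820% in cocaine mice and 82.6 ± 0.438% in saline mice, against 56.8% and 57.7%. Within promoter windows the level was lower the more CpGs the window held. With 1 to 3 CpGs, 132 isolated cytosines averaged 64.5 ± 1.67% in cocaine mice and 66.9 ± 0.445% in saline mice. With 7 to 10, 82 averaged 33.8 ± 1.57% in cocaine mice and 34.3 ± 1.32% in saline mice. With 21 or more, 15 averaged 0.570 ± 0.365% in cocaine mice and 1.66 ± 1.36% in saline mice, and 14 of the 15 were under 5%. Clustered cytosines in windows with 1 to 3 CpGs averaged 59.0 ± 1.40% in cocaine mice and 60.1 ± 0.705% in saline mice. With 7 to 10 they averaged 24.7 ± 0.753% in cocaine mice and 25.7 ± 0.330% in saline mice. With 21 or more they averaged 0.845 ± 0.195% in cocaine mice and 1.07 ± 0.296% in saline mice. At like CpG counts isolated and clustered means thus lay closer than they did within 250 bp of a start as a whole. Isolated cytosines had a median of 5 CpGs in their window, clustered ones 28, and all windows 7.

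**Figure D3:**
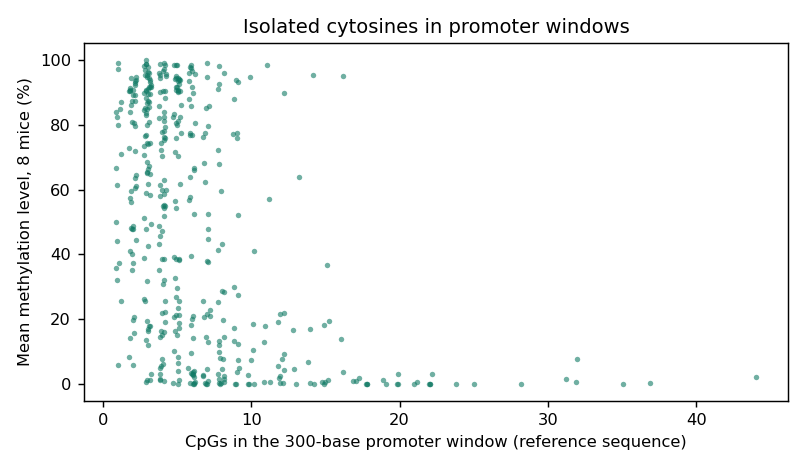
Mean methylation level over 8 mice of each of 437 isolated cytosines against the number of CpGs in its 300-base promoter window (points shifted sideways at random by under 0.3 to show overlap). Windows of 1 to 3 CpGs hold levels from 0.868% to 100%, and those of 21 or more hold none over 7.69%.

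A small set of isolated cytosines was nearly free of methylation. Of 1430 with a mean level under 5%, 603 (42.2%) lay within 1 kb of a gene end, 512 (35.8%) inside a gene and 315 (22.0%) between genes. They made up 9.74% of isolated cytosines at gene ends, 1.28% inside genes and 0.903% between genes. The best covered at a gene end was near Grm3, which encodes a metabotropic glutamate receptor, 996 bases upstream of the start. It averaged 0.793 ± 0.956% in cocaine mice and 1.95 ± 2.09% in saline mice on 156 to 434 reads per mouse. The Cflar cytosine, near the gene of a caspase-8 inhibitor, averaged 1.93 ± 1.598% in cocaine mice and 2.93 ± 2.28% in saline mice. The Ube2b cytosine, at the gene of a ubiquitin-conjugating enzyme, averaged 0.437 ± 0.873% in cocaine mice and 0.502 ± 0.598% in saline mice. The Gm27151 cytosine averaged 1.64 ± 1.57% in cocaine mice and 3.76 ± 2.19% in saline mice. Levels at these sites lay within a few points of 0. Inside genes the best covered were in Cdk15, a kinase gene, and Bicral, which encodes a chromatin remodelling subunit. These averaged 3.21 ± 2.01% and 0.527 ± 0.409% in cocaine mice, and 2.47 ± 1.06% and 0.868 ± 0.864% in saline mice. Those in Gm32298 and AW047730 averaged 0.576 ± 0.546% and 4.01 ± 1.98% in cocaine mice, and 0.516 ± 0.607% and 4.66 ± 1.91% in saline mice. The groups overlapped at all 8 sites. The Grm3, Cdk15 and Gm32298 cytosines have a CpG listed in at least 1 library at 74, 39 and 45 bp, so their isolation depends on coverage.

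The series title names a reorganisation of DNA methylation in cocaine reward learning, so isolated cytosines were compared between cocaine and saline mice. Their mean level was 77.0 ± 1.03% in cocaine mice and 78.3 ± 0.507% in saline mice, a difference of -1.24 points (two-sided exact permutation test over 70 assignments, n = 4 each, p = 0.0571, where the smallest p is 0.0286). Cocaine 1 and 3 were below all saline mice, and cocaine 2 just below saline 1, whereas cocaine 4 lay above saline 1. The difference therefore missed the threshold of 0.05 and was close to the spread among cocaine mice. Without saline 1 it was -1.48 points and the groups did not overlap (exact permutation test, p = 0.0571). Without cocaine 1 it was -0.832 points (exact permutation test, p = 0.143). Median coverage was lower in cocaine mice, 45 ± 8.76 reads against 59 ± 8.72 reads in saline mice. At isolated cytosines with 20 reads in all mice the difference was -1.24 points (exact permutation test, p = 0.0571). The mean was lower in cocaine on 19 of 19 chromosomes, from 72.9% in cocaine mice and 74.4% in saline mice on chromosome 11 to 80.3% and 81.3% on chromosome 3, and on each of them the groups overlapped.

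**Figure D4:**
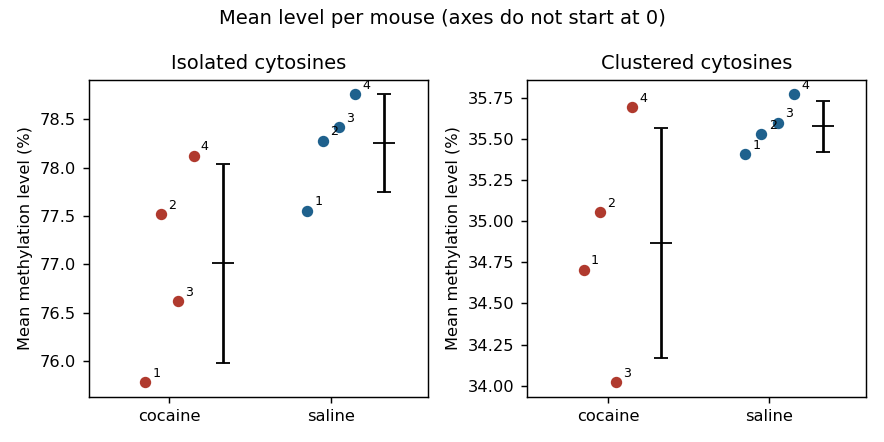
Mean methylation level of isolated (left) and clustered (right) cytosines in each mouse, numbered within its group, with mean and SD of 4 mice as bars. Isolated means run from 75.8% to 78.1% in cocaine mice and from 77.6% to 78.8% in saline mice. The vertical axes do not start at 0.

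The cocaine difference of isolated cytosines was not told apart from that of clustered ones. Clustered cytosines differed by -0.708 points (exact permutation test, p = 0.114). The gap between isolated and clustered means was 42.1 ± 0.718 points in cocaine and 42.7 ± 0.365 points in saline mice, which differ by -0.536 points (exact permutation test, p = 0.229). With clustered cytosines weighted to the levels of the isolated ones, clustered cytosines differed by -1.17 points (exact permutation test, p = 0.0857). The isolated difference minus this one was -0.0737 points (exact permutation test, p = 0.886).

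Within isolated cytosines no class passed the test. By location the differences were -1.44 points at gene ends, -1.49 inside genes and -0.919 between genes (exact permutation tests, adjusted p = 0.0857 each over the 3 classes). By level pooled over all mice, cytosines of 20 to 80% averaged 54.1 ± 2.59% in cocaine mice and 57.1 ± 1.87% in saline mice, a difference of -2.96 points (exact permutation test, adjusted p = 0.214). Those under 20% averaged 8.85 ± 1.27% in cocaine mice and 9.82 ± 1.67% in saline mice (exact permutation test, adjusted p = 0.371). Those over 80% averaged 92.2 ± 0.554% in cocaine mice and 92.7 ± 0.148% in saline mice, a difference of -0.569 points. Here the groups did not overlap, at 91.3, 92.3, 92.5 and 92.5% in cocaine mice 1 to 4 against 92.9, 92.7, 92.7 and 92.6% in saline mice 1 to 4 (exact permutation test, p = 0.0286, adjusted p = 0.0857). Without cocaine 1 this difference was -0.294 points (exact permutation test, adjusted p = 0.171). Cocaine 1 also moved other classes, and without it the differences were -0.953 points at gene ends and -0.595 points between genes (exact permutation tests, adjusted p = 0.171 each). The class under 20% ran from -1.72 points without saline 1 to -0.407 points without saline 4, with -1.51 points without cocaine 4 and -0.521 points without cocaine 3. By distance the 4 classes differed by -0.875 to -1.43 points (exact permutation tests, adjusted p = 0.114 to 0.171). Without cocaine 1 the differences were -0.71 points at 200 to 500 bp and -0.529 points beyond 1000 bp (exact permutation tests, adjusted p = 0.257 each). Clustered cytosines differed by -0.323 points at gene ends, -1.01 inside genes and -0.962 between genes. By level they differed by -0.214 points under 20%, -2.06 at 20 to 80% and -0.883 over 80%. The clustered difference was thus the larger one over 80% and between genes and the smaller one in the other classes, and it was not tested by class.

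Spread between mice of a group was compared at like levels. For each mouse the distance of its level from the mean of the other 3 mice of its group was averaged within 10 level bins of 10 points, and the bins were then weighted equally. Mice of a group enter each other's means, so the 8 values are not independent and the p-values of this contrast are a guide only. This bin average was 10.8 points for isolated and 10.8 points for clustered cytosines, and their difference was -0.0293 points (exact sign-flip permutation test over 8 mice, p = 0.336). It depended on depth and on how neighbours were counted. Among cytosines with a mean of 40 to 60 reads the isolated ones deviated more, by 0.165 points (exact sign-flip permutation test, p = 0.00781). With isolation judged against CpGs listed in any library they deviated less, by -0.132 points (exact sign-flip permutation test, p = 0.0156). The bins did not run alike. Isolated cytosines deviated less than clustered ones in each of the 8 bins from 20 to 100%, with 13.9 against 14.3 points at 40 to 50% and 5.14 against 5.82 points at 90 to 100%. They deviated more in the lowest 2 bins, with 4.42 against 1.47 points at 0 to 10%, and that bin offset the others in the average. Levels are not alike within the low bins, as isolated cytosines with a pooled level under 20% averaged 8.85% in cocaine mice and 9.82% in saline mice, against 1.72% and 1.94% for clustered ones. The bins were not tested one by one. Among cytosines of 20 to 80% the median SD over isolated ones was 12.5 points in cocaine and 11.7 points in saline mice, against 12.9 and 12.2 points over clustered ones.

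No single isolated cytosine passed the test between cocaine and saline mice. A quasi-binomial logistic regression was run at 666028 cytosines with a pooled level of 5 to 95%, of which 58616 were isolated. The level filter left out 1431 isolated cytosines below 5% and 21174 above 95%. The call needed an adjusted p under 0.05 with at least 10 points between groups, and 0 cytosines were called, 0% of the tested table, and the smallest adjusted p was 0.945. At an unadjusted p under 0.05, 3055 isolated cytosines were found, or 5.21%, against 5.12% of the whole table. Of these 2073 were lower in cocaine (3.54%, against 3.47% of the table) and 982 higher (1.68%, against 1.65%). With a moderated dispersion and with limma on logit values 0 isolated cytosines were called too. Groups did not overlap with cocaine lower at 1175 isolated cytosines (2.00%, against 1.98%), and with cocaine higher at 603 (1.03%, against 0.95%). In each count the isolated share was near that of the table. The mean was lower in cocaine at 57.4% of isolated cytosines, against 56.9% of the table.

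The 2 ends of a fragment gave a further view of single-site differences. At 8723 facing pairs with both ends tested, levels correlated at 0.61 but the cocaine minus saline differences at 0.03. Both ends differed in the same direction at 52.2% of these pairs, and at 465 of 866 pairs (53.7%) with either end at p under 0.05. Both ends were at p under 0.05 in 32 of the 8723 pairs, with the same sign in 19, of which 14 were lower in cocaine. Of all tested isolated cytosines 5.21% were at p under 0.05, and 67.9% of those were lower in cocaine. The counts of pairs were not tested against these shares. At 1184 tested CpGs read on both strands the differences correlated at 0.09, with levels at 0.96. Clustered neighbours 31 to 100 bp apart on 1 strand, which can share reads, gave 0.22 for differences and 0.76 for levels over 142103 pairs. All of these coefficients run over sites of the same 8 libraries.

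Isolated cytosines with the smallest p among those with at least 10 points between groups, 1 per gene, are given as values, since none passed the adjusted threshold. All 12 had an adjusted p of 0.945 in the quasi-binomial F test with Benjamini-Hochberg adjustment over the table. The smallest p belonged to a cytosine at 1700001L05Rik (base 83366658 of chromosome 15, minus strand), 640 bases downstream of the gene start. It was at 24.1, 35.6, 30.4 and 20% in cocaine mice 1 to 4, and at 77.8, 72.3, 80.2 and 67.7% in saline mice 1 to 4. The groups were far apart, by -47.0 points (SE 4.43, unadjusted p = 8.39e-05 in the model over all cytosines). The cytosine facing it at base 83366519, itself isolated, averaged 72.7 ± 8.50% in cocaine mice and 80.1 ± 1.28% in saline mice, so the far end of the same fragment differed by -7.44 points, with overlap between groups.

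At Sln, which encodes sarcolipin, an inhibitor of the sarcoplasmic calcium pump, the cytosine at base 53850259 of chromosome 9 was at 7.81, 15.8, 13.9 and 19.5% in cocaine mice 1 to 4. In saline mice 1 to 4 it was at 45.9, 35.9, 47.6 and 35.6%. All cocaine mice were below all saline mice, and the facing end averaged 29.95 ± 15.7% in cocaine mice and 45.05 ± 15.1% in saline mice, with overlap. Near Robo3, an axon guidance receptor gene, a cytosine at base -1611 relative to the start was at 0, 6.25, 8.93 and 5.08% in cocaine mice 1 to 4, against 40.7, 29.2, 31.1 and 30.8% in saline mice 1 to 4. The Robo3 groups did not overlap, while at the facing end, 6.55 ± 5.33% in cocaine mice and 17.9 ± 14.2% in saline mice, they did. At Pgap3, a gene of glycolipid anchor remodelling, the means were 65.5 ± 8.28% in cocaine mice and 87.2 ± 1.12% in saline mice. At Epb41l1, which encodes a neuronal membrane skeleton protein, they were 87.4 ± 3.31% in cocaine mice and 99.5 ± 1.02% in saline mice. Inside Wdfy4 they were 84.3 ± 11.5% in cocaine mice and 100% in saline mice, with cocaine 2 also at 100%. The isolated facing end in Wdfy4 had the higher mean in cocaine mice, 94.3 ± 9.63% against 92.6 ± 7.36% in saline mice. The groups did not overlap at Pgap3 and Epb41l1. At their facing ends they did, with means of 20.6% and 88.8% in cocaine mice and 26.5% and 92.2% in saline mice. The Pgap3 cytosine has a CpG listed in at least 1 library at 84 bp.

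The other 6 cytosines read higher in cocaine, and their groups did not overlap. At C3, the central complement gene, a cytosine at base 57203314 of chromosome 17 was at 100, 91.8, 93.0 and 86.8% in cocaine mice 1 to 4, against 70.7, 75.8, 67.5 and 73.3% in saline mice 1 to 4. Its facing neighbour, which is not isolated, averaged 92.1 ± 5.73% in cocaine mice and 92.5 ± 8.48% in saline mice. Inside Crispld2, which encodes a secreted protein, the cytosine was at 23.1, 31.2, 37.5 and 20% in cocaine mice 1 to 4 and at 0% in all 4 saline mice, on 10 to 20 reads each. A cytosine 11550 bp from Olfr1238, an olfactory receptor gene, averaged 94.1 ± 2.57% in cocaine mice and 73.9 ± 7.11% in saline mice. A cytosine 13194 bp from Gtf2e2, a general transcription factor gene, was at 100% in the 4 cocaine mice and averaged 83.9 ± 7.998% in saline mice. Near Gal3st2c, a sulfotransferase gene, the means were 89.2 ± 1.83% in cocaine mice and 75.8 ± 4.26% in saline mice. At 4930563M21Rik they were 98.1 ± 1.24% in cocaine mice and 85.1 ± 2.76% in saline mice. The nearest common CpG differed by 0.488 points at Crispld2 (1477 bp away), -0.994 at Olfr1238 and 1.04 at Gtf2e2. It differed by 5.66 points at Gal3st2c and 3.64 at 4930563M21Rik. Its sign was thus the other one at Olfr1238, as it was at C3.

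**Figure D5:**
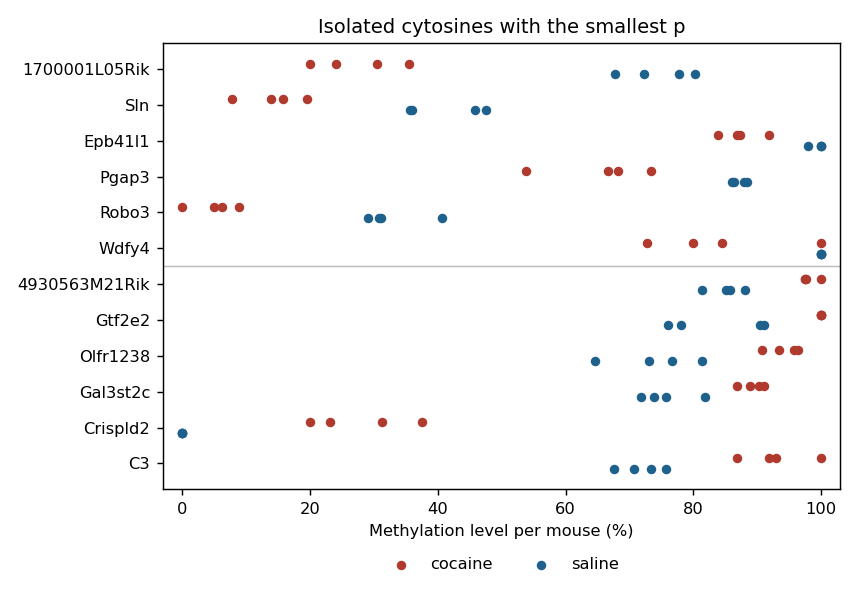
Methylation level in each mouse at 12 isolated cytosines, cocaine in red over saline in blue. They have the smallest p among those with at least 10 points between groups and an assigned gene, 1 per gene. The 6 above the line were lower in cocaine and the 6 below it higher. At 1700001L05Rik cocaine mice lie between 20% and 35.6% and saline mice between 67.7% and 80.2%. Adjusted p was 0.945 at each of the 12.

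Gene lists were described by the isolated cytosines inside or within 1 kb of their genes, beside the 34685 tested at all genes. Of these 1257 were lower and 520 higher in cocaine at an unadjusted p under 0.05 (5.12% in all), with a median difference of -1.55 points. The series title names extracellular matrix genes. Collagens, laminins and basement membrane genes had 217 tested isolated cytosines, 6 of them lower and 2 higher, with a median of -2.12 points. Perineuronal net and proteoglycan genes had 82, 5 lower and 0 higher, with a median of -2.09 points. Matrix proteases and their inhibitors had 97, 4 lower and 1 higher, with a median of -2.55 points. Adhesion receptors had 279, 11 lower and 4 higher, with a median of -2.27 points. None of these cytosines was called, and 5.12% is the share to read the counts against.

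The cytosines with the smallest p in each list lay inside genes, and each had an adjusted p of 0.945 in the same test. In Gpc1, a heparan sulfate proteoglycan of the glypican family, the cytosine was at 57.9, 80.4, 75 and 54.5% in cocaine mice 1 to 4, against 100, 87.5, 87.9 and 92.9% in saline mice 1 to 4. In Tnr, which encodes the perineuronal net protein tenascin-R, the means were 83.3 ± 4.49% in cocaine mice and 98.4 ± 1.82% in saline mice. In the protease gene Adamts16 they were 60.1 ± 6.73% in cocaine mice and 83.4 ± 4.09% in saline mice, and in Adamtsl1 90.1 ± 3.58% and 98.5 ± 1.98%. At these 4 the groups did not overlap, with cocaine lower. Both collagen examples had the higher mean in cocaine mice. Col13a1 averaged 90.6 ± 3.27% in cocaine mice and 73.7 ± 6.46% in saline mice without overlap. Col18a1 was at 100% in all cocaine mice and averaged 90.7 ± 6.23% in saline mice, with saline 1 also at 100%. The cadherin genes Cdh22 and Cdh8 averaged 0% and 100% in cocaine mice, and 15.1 ± 13.1% and 92.7 ± 5.79% in saline mice, of which saline 4 matched the cocaine mice at both. The nearest common CpG differed by -16.0 points at Gpc1, -8.43 at Tnr (10886 bp away), -4.97 at Adamts16 and 6.63 at Adamtsl1 (19043 bp away). It differed by -9.45 points at Col13a1, -0.410 at Col18a1, -7.87 at Cdh22 and 0.818 at Cdh8. Its sign was thus the other one at Adamtsl1 and both collagen genes. At Col13a1 a CpG listed in at least 1 library lies at 17 bp.

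Among synaptic and signalling genes no isolated cytosine was called either, and the 5.12% and median of -1.55 points at all genes apply here too. Glutamate and GABA synapse genes had 301 tested isolated cytosines, 15 lower and 4 higher, with a median of -2.29 points. In Dlg2, a postsynaptic scaffold gene, the means were 62.1 ± 12.9% in cocaine mice and 88.8 ± 1.80% in saline mice without overlap. In Dlgap1, another scaffold gene, they were 87.9 ± 10.5% in cocaine mice and 100% in saline mice, with cocaine 3 also at 100%. Dopamine, opioid and reward genes had 30 tested, 2 lower and 0 higher, with a median of -1.50 points. The Cdk5r1 cytosine, in the gene of the p35 activator of CDK5, was at 0, 7.14, 6.38 and 5.41% in cocaine mice 1 to 4, against 20.3, 25.6, 17.3 and 20.3% in saline mice 1 to 4. In Crhr1, a stress hormone receptor gene, the means were 79.2 ± 14.6% in cocaine mice and 93.5 ± 5.71% in saline mice. Activity-regulated genes had 23 tested, with 0 at p under 0.05 in either direction and a median of -0.86 points. In Dusp1, a MAP kinase phosphatase gene, the means were 45.6 ± 6.37% in cocaine mice and 69.9 ± 15.4% in saline mice, and in Inhba, an activin subunit gene, 58.0 ± 3.30% and 72.5 ± 1.76%. The groups overlapped at Crhr1 and Dusp1 but not at Cdk5r1 and Inhba. The nearest common CpG differed by 0.591 points at Dlg2, -1.43 at Dlgap1 and 1.20 at Cdk5r1 (1253 bp away). It differed by -17.8 points at Crhr1, -8.68 at Dusp1 and -0.861 at Inhba, so its sign was the other one at Dlg2 and Cdk5r1.

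Cell identity genes were read as values only. Dentate granule cell identity genes had 34 tested isolated cytosines, 0 lower and 1 higher at p under 0.05 (2.94%, against 5.12% at all genes). Their median was -6.20 points, against -1.55 points at all genes. The mean over their 40 isolated cytosines, at 9 genes, was 51.0% in cocaine mice and 55.4% in saline mice. At all genes it was 73.7% in cocaine mice and 75.2% in saline mice, and the list was not compared at like levels. Isolated cytosines with a pooled level of 20 to 80% differed by -2.96 points, and those over 80% by -0.569 points. In Prox1, a transcription factor gene of granule cells, the cytosine was at 10.4, 20.4, 6.35 and 12.9% in cocaine mice 1 to 4, against 34.0, 20.7, 23.1 and 54.6% in saline mice 1 to 4. The Prox1 groups did not overlap, with cocaine 2 just below saline 2. In Zbtb20, another transcription factor gene, the means were 16.2 ± 4.80% in cocaine mice and 4.24 ± 3.21% in saline mice on 13 to 27 reads, without overlap. Markers of oligodendrocytes, astrocytes and microglia had 23 tested, 0 at p under 0.05 and a median of -2.58 points. In Slc1a3, the astrocyte glutamate transporter gene, the means were 15.2 ± 15.7% in cocaine mice and 39.3 ± 22.3% in saline mice. In Mbp, the myelin basic protein gene, they were 15.9 ± 9.80% in cocaine mice and 33.3 ± 12.9% in saline mice. The groups overlapped at Slc1a3 and Mbp, and the part of the cell mix in these values was not tested. The nearest common CpG differed by -15.6 points at Prox1, 1.57 at Zbtb20, -3.95 at Slc1a3 and 6.88 at Mbp, where its sign was the other one.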

How the data were processed

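Methylation was measured in 8 libraries, grouped by treatment label. Per the submitters' processing notes, bcl2fastq and Bismark 22.1 were used, with build mm10. For trimming and for duplicates the step was not given in the sources used here. The deposited methylation level is a fraction, multiplied here by 100, although the header calls it a percent. Coverage was deposited as a read count of at least 10. Methylated reads were recovered by rounding level times coverage.

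Members and gene lists were chosen with earlier results of these data known. The labels give no batch, and p-values measure the spread between these samples. Levels were averaged per mouse with cytosines weighted equally and tested by exact permutation over 70 assignments or 256 sign flips. Single cytosines were fitted by quasi-binomial logistic regression with their own dispersion (at least 1), an F test with 1 and 6 degrees of freedom and Benjamini-Hochberg adjustment over all tested cytosines of chromosomes 1 to 19, X and Y. Named sites were the 6 smallest p per direction with at least 10 points, the 4 best covered low sites at gene ends and inside genes, and the 2 smallest p per list of 9 lists, beside the 3 farthest sites. Except for the farthest, a site needed an assigned gene, at most 50 kb away, and each set took 1 site per gene. The tests were run on simulated reads first. Genes came from RefSeq GRCm38.p6. Promoter windows covered 18 of the 19 chromosomes, with 78514 isolated cytosines. The lowest chi-square per cytosine over 28 library pairs was 2.64, and all 8 libraries were kept. Every pair with saline 1 lay at 5.47 to 6.56, and every other pair at 4.27 or less. Software was Python 3.11.15, numpy 2.4.6, scipy 1.17.1, pandas 2.3.3, R 4.3.3 and limma 3.58.1.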

Additional observations from a re-analysis of the deposited data

Results flagged for a closer look

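Of 112 groups of 4 mice checked, 13 held a mouse far from the other 3 by Dixon's gap ratio. Chance gives about 1 in 20 where values are normally distributed, which levels tied at 0 or 100% are not. The ratio is relative to the range of the group, so some flagged gaps are small in points. Cocaine 1 had a gap of 41.1 points between isolated and clustered means, against 42.4 to 42.6 points in the other 3 cocaine mice. Cocaine 1 also had the lowest mean at isolated cytosines over 80%, at 91.3%, against 92.3 to 92.5% in the others. Saline 1 had 15.5% of intermediate isolated cytosines at exactly 0 or 100%, against 0.535 to 2.36% in the other saline mice.

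At single sites, cocaine 4 stood apart at 4930563M21Rik with 100%, at Ube2b with 1.75%, at AW047730 with 6.96% and at Slc1a3 with 38.5%. Cocaine 1 stood apart at Grm7 with 82.8%, and cocaine 2 at Col13a1 with 95.5%. Saline 3 stood apart at Col13a1 with 83.3%, saline 2 at Epb41l1 with 98.0% and at Vmn2r35 with 66.7%, and saline 1 at Col18a1 with 100%.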

How the results depend on the processing

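The cocaine difference of the isolated mean kept its sign and stayed above 0.05 under all 19 alternatives, from -1.62 to -0.832 points (exact permutation, p = 0.0571 to 0.143). Leaving out each mouse in turn gave that same range. With same-numbered mice paired, or with saline 1 left out together with a cocaine mouse, p could not fall below 0.05. The gap between isolated and clustered means stayed positive under 17 alternatives, from 15.3 to 47.2 points, and its difference between groups ran from -0.863 to -0.0737 points under 18. With a mouse left out these were 42.3 to 42.6 points and -0.711 to -0.178 points. Of single isolated cytosines 0 were called under 14 alternatives. The count higher in cocaine at p under 0.05 was 982 of 58616 tested, against 1774 of 81221 with no level filter and 627 of 40036 at 20 reads. With no level filter the share was larger too, and not only the count. With a mouse left out the counts were 784 to 1041 higher and 1624 to 2003 lower. The spread contrast was -0.132 points (exact sign-flip permutation, p = 0.0156) with neighbours listed in any library and turned to 0.165 points (p = 0.00781) at 40 to 60 reads, an alternative chosen after seeing the data. Both p-values rest on mice that enter each other's group means, and the cause was not tested. With a mouse left out the spread contrast was -0.0578 to -0.00407 points.

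The labels number the mice 1 to 4 in both groups. Same-numbered mice did not deviate together (correlations over cytosines of -0.00688 to 0.0377), so the numbers were not taken as pairs. With the replicate block the isolated difference was -1.24 points and the gap's difference -0.536 points (exact sign-flip permutation over 4 pairs, p = 0.125 each, the smallest it can give). The block left 1378 isolated cytosines lower in cocaine at p under 0.05, against 2073 without it, and 0 called.

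Depth limits single sites, since 10 reads give steps of 10 points and copies of molecules cannot be told apart. The 32 tested isolated cytosines chosen by p, by distance or from the lists kept their sign under 429 of 429 site and setting combinations, with an adjusted p of 0.176 to 0.992. Settings that change only the test or the set of tested cytosines leave a site's difference as it was. Most of these sites were also picked by their p in these data. The kept signs are therefore no check of the differences. The sites outside the level filter and those shown for their sequence have no alternative values. Saline 1 and cocaine 1, left out together after seeing the data, gave -1.06 points (exact permutation, p = 0.1), and saline 1 with cocaine 3 gave -1.35 points (p = 0.1). With so few mice left, 0.1 is the smallest p this test can give, and in both cases the remaining groups did not overlap.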
